A study of Mus musculus with 6 samples.

Results

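The Hox cluster genes of mouse were described in mesenchymal cells of the fetal liver on 2 days of gestation. The members are the protein-coding genes whose symbol is Hoxa, Hoxb, Hoxc or Hoxd followed only by a number, and 38 of the 54532 genes of the deposited table are described here. Their choice used gene names and no measured value. RNA-seq libraries had been made from livers of CD-1 mice of the genotype Sm22-Cre/ROSA26RYFP, at embryonic day 16 (E16, 3 libraries) and embryonic day 18 (E18, 3 libraries), each with the letters A, B and C, and both days carried both alleles. In this genotype the promoter of Sm22 (Tagln, a smooth muscle actin-binding protein) drives Cre recombinase, Cre switches on eYFP from the ROSA26 locus, and cells positive for eYFP were sorted by flow cytometry after digestion of the liver. eYFP therefore marks any cell in which Cre was active then or earlier. No untreated or eYFP-negative cells are compared here. Whether each library is 1 litter, 1 embryo or a pool is not stated in the labels. The p-values below therefore cover only the differences among these 6 libraries, and that spread may be technical.

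Hox genes encode homeodomain transcription factors that give cells along the head-to-tail axis their positional identity. In mammals they lie in 4 clusters, and their order along a cluster follows the order in which they are switched on in time and in space: genes of low paralogue number, at one end, are used early and in anterior regions, and genes of high number late and in posterior regions. Mesenchymal cells often keep the Hox code of the body level at which they arose, some Hox genes also act in blood stem and progenitor cells, and Hox proteins bind DNA together with PBX and MEIS proteins, the TALE homeodomain cofactors.

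On mm10 the members of HoxA lay on chromosome 6 from 52162417 to 52260880 (10 members), those of HoxB on chromosome 11 from 96194316 to 96368256 (10 members), those of HoxC on chromosome 15 from 102921103 to 103036852 (9 members) and those of HoxD on chromosome 2 from 74668310 to 74765142 (9 members). The 250 bases before the annotated start are printed for 3 members: Hoxa2, the only member that reached 1 TPM (a library's share of transcripts, corrected for length) in 3 libraries; Hoxb4, a HoxB member with a value in every library; and Hoxa13, the terminal HoxA member, for which no read was found. The sequences are RefSeq's, on GRCm38.p6, the assembly that mm10 also names, and each is written 5′ to 3′ along the gene. Hoxa2 is read from the minus strand at chr6:52164832-52165081, Hoxb4 from the plus strand at chr11:96318017-96318266 and Hoxa13 from the minus strand at chr6:52260881-52261130. Capitals mark matches, on either strand, to TGATNNAT, the composite motif of a HOX and a PBX protein, and to CCAAT, the box bound by the NF-Y factor.
Hoxa2: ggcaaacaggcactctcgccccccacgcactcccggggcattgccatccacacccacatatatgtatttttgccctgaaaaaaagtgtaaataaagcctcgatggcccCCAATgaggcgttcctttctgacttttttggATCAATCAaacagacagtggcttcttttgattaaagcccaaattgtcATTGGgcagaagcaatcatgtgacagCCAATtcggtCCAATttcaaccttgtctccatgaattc
Hoxb4: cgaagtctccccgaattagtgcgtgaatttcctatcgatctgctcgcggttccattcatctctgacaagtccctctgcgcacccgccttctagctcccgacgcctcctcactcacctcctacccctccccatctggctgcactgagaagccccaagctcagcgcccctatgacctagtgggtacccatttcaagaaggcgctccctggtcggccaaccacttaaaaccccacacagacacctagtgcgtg
Hoxa13: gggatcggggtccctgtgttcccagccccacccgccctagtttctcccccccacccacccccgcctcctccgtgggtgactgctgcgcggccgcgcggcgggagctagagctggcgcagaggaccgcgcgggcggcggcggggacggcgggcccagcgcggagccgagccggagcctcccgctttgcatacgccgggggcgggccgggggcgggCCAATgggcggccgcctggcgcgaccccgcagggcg

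The Hoxa2 stretch held 1 match to TGATNNAT, 111 bases before the start on the strand opposite the gene, and 4 to CCAAT. The Hoxb4 stretch held neither, and that of Hoxa13 held 1 CCAAT. RefSeq's table gave windows of 300 bases (250 before to 50 after the start) for 22 of the 38 members, 24 windows in all. TGATNNAT was in 4 of these 24 windows and in 8.85% of all 32851 windows of the genome. CCAAT was in 15 of the 24 and in 37.4% of all windows. AGGTCA, a single half-site of nuclear receptors, was in 7 of the 24 and in 16.3% of all, and repeats of it were not searched for. TATAAA was in 4 of the 24 and in 13.6% of all. The member windows were rich in CpG: their median was 14.5 CpG per window against 7 over all windows. The 12 windows of members with a read had a median of 13.5 CpG, and the 12 windows of members with no read a median of 20.5. The windows printed in part above ran from 9 CpG for Hoxa2 and 14 for Hoxb4 to 45 for Hoxa13. A match is a string of letters, not a bound site.

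The sorted cells carried the transcripts of mesenchyme, and of other liver cells as well. All 10 markers of liver mesenchyme (Col1a1, Col1a2, Col3a1, Pdgfra, Pdgfrb, Dcn, Lum, Des, Acta2 and Tcf21) were above 0, and their summed level was 381 to 755 TPM at E16 and 2109 to 5569 TPM at E18. The 10 hepatocyte markers summed to 2088 to 8778 TPM at E16 and 378 to 980 TPM at E18, 10 erythroid markers to 4743 to 6606 TPM and 10147 to 18063 TPM, and 10 markers of blood stem and progenitor cells to 121 to 175 TPM and 85.1 to 168 TPM. The 8 endothelial markers summed to 27.5 to 41.0 TPM and 18.0 to 25.1 TPM. Egfl7 made up most of that sum, with 26.2 to 39.2 TPM at E16 and 12.5 to 22.5 TPM at E18. Its mean was lower at E18, while the mean of the other 7 endothelial markers was higher. Kit made up most of the blood list, with 60.9 to 136 TPM. Among its stem cell markers, Hlf had 0.515 to 1.57 TPM and Procr 0.361 to 7.001 TPM, and Mecom was at 0 in each E16 library and at most 0.123 TPM at E18. No list had a marker at 0 in all 6 libraries. Whole reads could be recovered from the TPM, and came to 21128622 to 22624478 per library at E16 and 14586270 to 18280351 at E18, so a gene at a given TPM had fewer reads at E18. A single transcript, Gm26917, took 19.8% to 33.9% of all TPM in each library.

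Hox transcripts were scarce in these cells and came mainly from the anterior genes of HoxA and HoxB. At least 1 read was found in any library for 21 of the 38 members: 8 of 10 in HoxA, 7 of 10 in HoxB, 4 of 9 in HoxC and 2 of 9 in HoxD. The 642 member reads over all 6 libraries fell by 37.7% to HoxA, 53.7% to HoxB, 6.07% to HoxC and 2.49% to HoxD. E18 replicate B gave 264 of them, and the shares varied by library. HoxA and HoxB together held 60.0% of the summed member TPM in E16 replicate C and 100% in replicate B of both days. In E16 replicate C, HoxC held 37.2% and HoxA 18.9%. Along the clusters, paralogue groups 1 to 5 gave 84.4% of the member reads (11 of 14 members had a read), groups 6 to 9 gave 15.0% (9 of 12 members) and groups 10 to 13 gave 0.623% (1 of 12 members). The only member of the posterior groups 10 to 13 with a read was Hoxa11, with 4 reads in E18 replicate A. The order along the clusters held within HoxA, where groups 2 to 5 gave 229 of 242 reads, and within HoxB, where groups 1 to 5 gave 293 of 345, though in E16 replicate B the HoxB groups 1 to 5 summed to 0.171 TPM and groups 6 to 9 to 1.10 TPM. Over the 6 libraries it did not hold in the other clusters, where reads were few. Groups 4 and 5 of HoxC gave 18 reads and groups 6 to 9 gave 21, but 16 of the 21 were in E16 replicate C. At E18 alone, groups 4 and 5 of HoxC gave 16 reads and groups 6 to 9 gave 5. In HoxD the 2 reads of Hoxd3 stood against 14 of Hoxd8. Reads also depend on transcript length, which TPM corrects for: over all 4 clusters, groups 1 to 5 summed to 1.85 ± 0.0842 TPM at E16 and 10.8 ± 6.35 TPM at E18 (SD, n = 3 each), and groups 6 to 9 to 0.683 ± 0.596 and 1.94 ± 0.643 TPM.

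**Figure D1:**
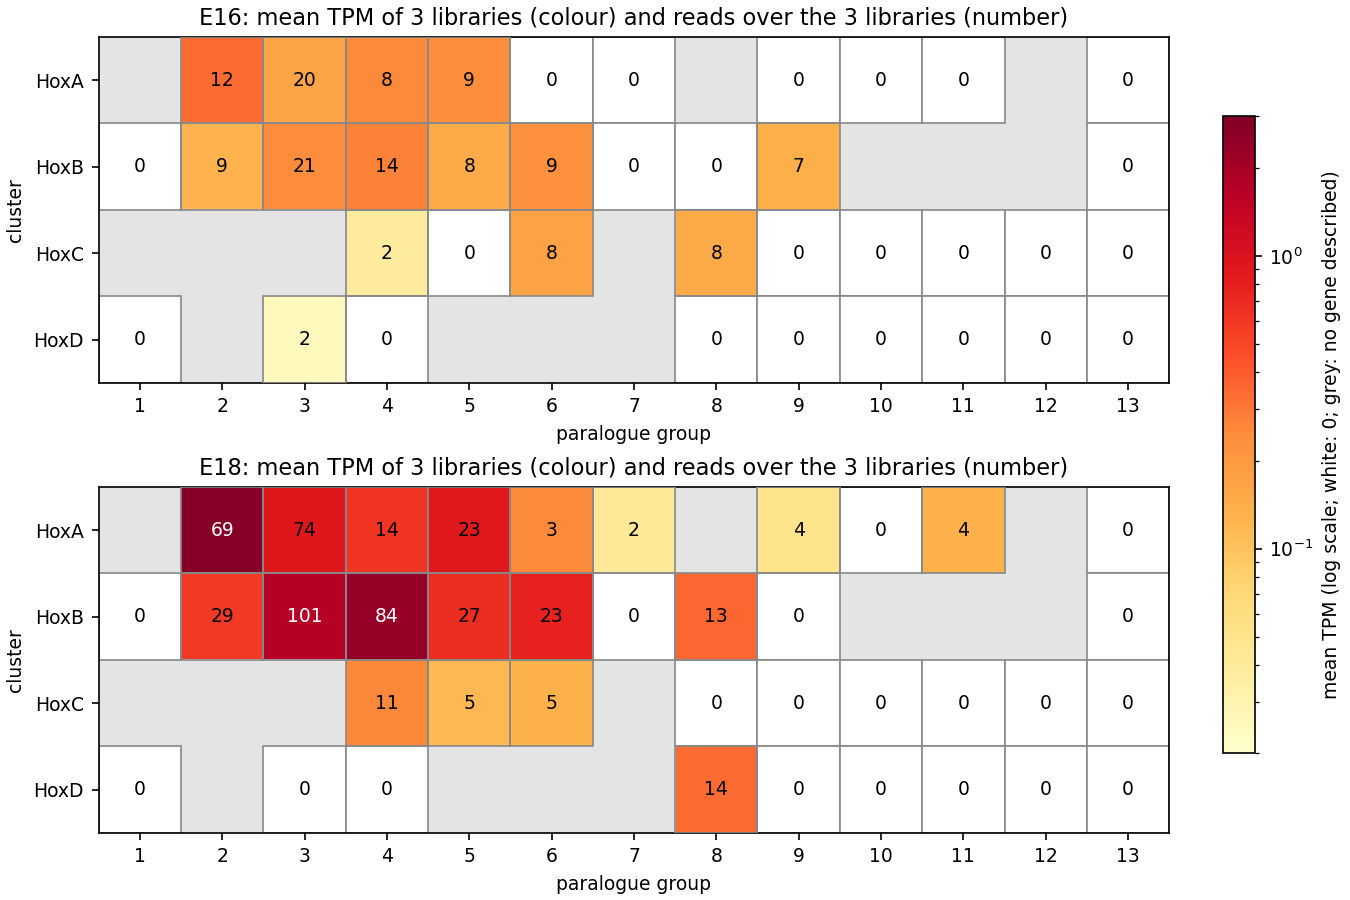
Mean TPM (colour, log scale) and summed reads (number) of each Hox gene at E16 and E18, 3 libraries a day, with clusters as rows and paralogue groups as columns; white cells are at 0 and grey cells hold no gene described here. Reads gather in groups 2 to 5 of HoxA and HoxB on both days, with the largest sums for Hoxb3 (101 reads) and Hoxb4 (84 reads) at E18.

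In TPM as deposited, a level of 1 TPM was reached by no member in any E16 library. At E18, 3 members reached it in replicate A, 7 in replicate B and 2 in replicate C, and 8 different members (Hoxa2, Hoxa3, Hoxa5, Hoxb3, Hoxb4, Hoxb5, Hoxb6 and Hoxb8) reached it in at least 1 library. Without E18 replicate B, 4 of the 8 did so. Hoxa2 alone passed 1 TPM in at least 3 of the 6 libraries, 1 of 38 members against 55.8% of all protein-coding genes, and it did so in the 3 E18 libraries. Another 13 members had reads but stayed under 1 TPM in every library. HoxC and HoxD had no member at 1 TPM in any library, and the highest value in either was 0.775 TPM, for Hoxc4 in E18 replicate C. All these counts depend on the scaling. The largest member value was 5.18 TPM as deposited and 10.1 TPM after TPM were rescaled to protein-coding genes. Members at 1 TPM were not counted by day after that rescaling.

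No read was found for 17 of the 38 members, where 23.4% of all protein-coding genes were at 0 in every library. The 17 were Hoxa10, Hoxa13, Hoxb1, Hoxb7, Hoxb13, Hoxc9, Hoxc10, Hoxc11, Hoxc12, Hoxc13, Hoxd1, Hoxd4, Hoxd9, Hoxd10, Hoxd11, Hoxd12 and Hoxd13. A count of 0 allows up to 3 reads, which for these genes is a level of 0.104 to 0.659 TPM depending on the library and the exon length. This limit covers counting error only. These genes were therefore not detectable at this depth, and low levels under those bounds cannot be told from none. Several of the 17 are posterior genes of limb, tail and urogenital patterning, among them Hoxa13, Hoxd13 and Hoxb13.

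Among the anterior HoxA genes, Hoxa2, which patterns the hindbrain and the second pharyngeal arch, had the highest value of any member. Its level (ENSMUSG00000014704, chromosome 6, 52162417 to 52164831) at E16 was 0.248 TPM in replicate A (3 reads), 0.339 TPM in replicate B (4 reads) and 0.435 TPM in replicate C (5 reads). At E18 it was 2.17, 5.18 and 1.02 TPM in the same order, from 17, 42 and 10 reads. All 3 E18 libraries lay above all E16 libraries, with a mean of 2.79 ± 2.15 TPM against 0.341 ± 0.0937 TPM (SD, n = 3). Counting error alone is wide: the exact 95% Poisson interval of the highest E16 value was 0.141 to 1.02 TPM and that of the lowest E18 value 0.489 to 1.88 TPM, so these 2 libraries overlap in that error. In bulk RNA, fewer cells of a type and less RNA per cell cannot be told apart, which holds for every comparison of the days here.

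Hoxa3, which is needed for the thymus, parathyroid and neck skeleton, had 0.292, 0.125 and 0.0770 TPM at E16 and 0.640, 1.86 and 0.181 TPM at E18. The days overlapped, since E18 replicate C lay below E16 replicate A. Of its exons, 27.1% lay under exons of other genes. Hoxa5, which acts in lung and gut mesenchyme, had 0.234, 0.481 and 0 TPM at E16 and 0.966, 1.28 and 0.386 TPM at E18, with an overlap through E18 replicate C. Hoxa4 had 8 reads in E16 replicate B, none in the other E16 libraries, and 5, 4 and 5 reads at E18. The HoxA genes beyond group 5 had no read at E16: Hoxa6 had 3 reads in E18 replicate B, Hoxa7 had 2 in E18 replicate C, and Hoxa9, known for its part in blood progenitors and leukaemia, had 3 in E18 replicate B and 1 in E18 replicate C.

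In HoxB the group 3 and group 4 genes led. Hoxb4, known for the expansion of blood stem cells when overexpressed (ENSMUSG00000038692, chromosome 11, 96318267 to 96321638), had 0.285, 0.117 and 0.421 TPM at E16 and 2.03, 4.09 and 0.917 TPM at E18, from 5, 2 and 7 and from 23, 48 and 13 reads. The days did not overlap, and the means were 0.275 ± 0.152 and 2.35 ± 1.61 TPM (SD, n = 3). None of its exon length lay under another gene's exons. Hoxb3, a paralogue of Hoxa3 in pharyngeal and hindbrain patterning (ENSMUSG00000048763, chromosome 11, 96323326 to 96347930), had 0.517, 0 and 0.218 TPM at E16 and 1.07, 2.98 and 0.979 TPM at E18. Its 0 was in E16 replicate B, and the days did not overlap (0.245 ± 0.259 and 1.68 ± 1.13 TPM). Exons of other genes, all of Hoxb3os on the opposite strand, covered 52.9% of its exon length. The library kit marks strand, but how strand was set in the counting is not given in the sources used here, so reads of the pair may not be separate; Hoxb3os itself had 1 read at E16 and 7, 3 and 0 reads at E18.

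Hoxb2, which acts in the hindbrain, had 0.294, 0 and 0.0885 TPM at E16 and 0.650, 0.753 and 0.363 TPM at E18, with no overlap of the days, and 27.3% of its exon length also lay under Hoxb3os. Hoxb5 had 0, 0.0540 and 0.388 TPM at E16 and 0.244, 1.26 and 0.520 TPM at E18, with an overlap. Hoxb6 had 0.692, 0.334 and 1.29 TPM at E18, highest in replicate C, and 9 reads (0.690 TPM) in E16 replicate B alone at E16. Hoxb8 had all its 13 reads in E18 replicate B (1.08 TPM), and Hoxb9 all its 7 in E16 replicate B (0.409 TPM).

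HoxC and HoxD together had 55 reads in the 6 libraries and none in replicate B of either day. Hoxc4 had 11 of its 13 reads in E18 replicate C, and Hoxc5 had 4 reads in E18 replicate A and 1 in E18 replicate C. Hoxc6 had 8 reads in E16 replicate C, then 1 in E18 replicate A and 4 in E18 replicate C. Hoxc8 had all its 8 reads in E16 replicate C. In HoxD, Hoxd8 had 5 reads (0.413 TPM) in E18 replicate A and 9 (0.594 TPM) in E18 replicate C, and Hoxd3 had 2 reads in E16 replicate C. Among the 21 members with a read, 7 had reads in a single library, and the most reads of any of these was 13, for Hoxb8.

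**Figure D2:**
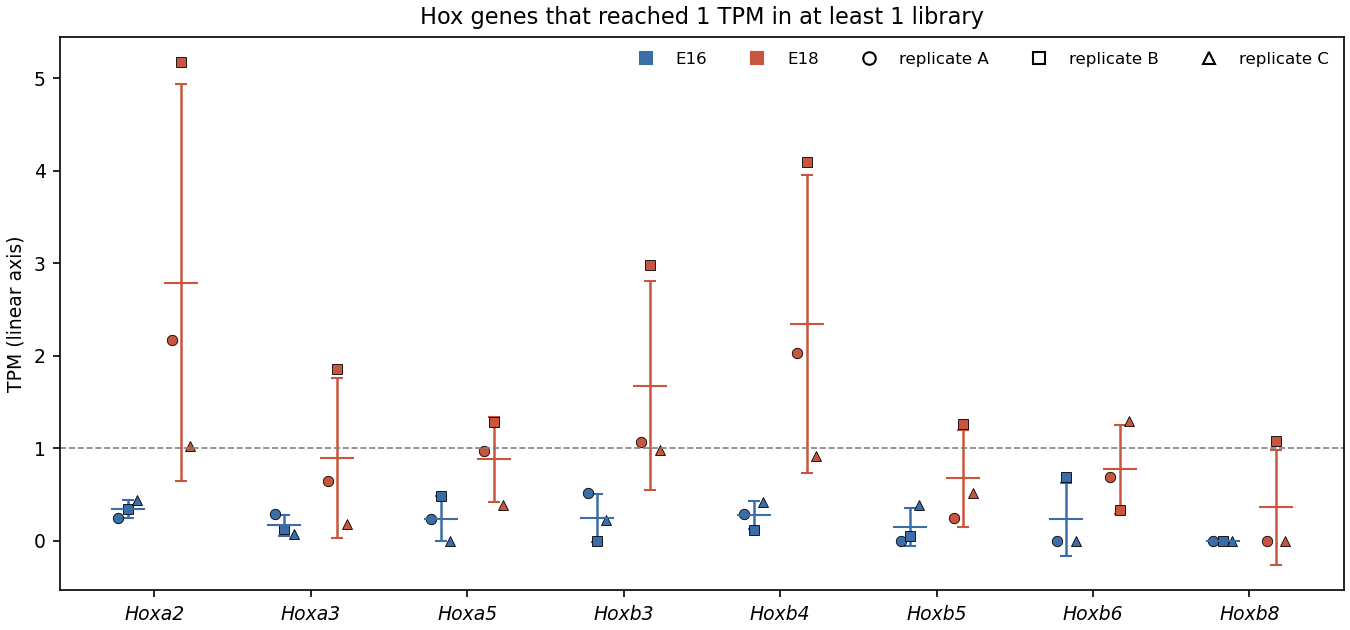
TPM (linear axis) of the 8 Hox members that reached 1 TPM in at least 1 library, with colours for days, shapes for replicates, horizontal marks and bars for day means and SD (n = 3), and a dashed line at 1 TPM. For Hoxa2, Hoxb3 and Hoxb4 every E18 point lies above every E16 point, and E18 replicate B is the highest library for each of the 3.

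Between the days, no member passed the test. Of the 21 members with a read, 4 were higher at E18 without overlap, against 15% of all genes above 0. In limma on log2(TPM + 1), over genes of at least 1 TPM in at least 3 of the 6 libraries, 618 of 17824 genes (3.47%) had a Benjamini-Hochberg adjusted p under 0.05, 549 of them higher at E18 (3.08%). Among the calls 88.8% were higher at E18, and 70.7% after TPM were rescaled to protein-coding genes. Hoxa2 was the only member that entered this test, and it passed the filter through its 3 E18 libraries alone. A gene that enters this way has to be higher at E18 without overlap. The direction and p of Hoxa2 are therefore no independent support for a rise. The difference of Hoxa2 on the log2(TPM + 1) scale was 1.35 ± 0.45 (SE, E18 minus E16), against a median of 0.07 over all genes tested. Hoxa2 had an unadjusted limma p of 0.0196 and a limma adjusted p of 0.144. With limma array weights, under which 24.2% of all genes were called, its difference was 1.21 and its adjusted p 0.0230. Over its other alternatives the limma adjusted p ran from 0.0506 to 0.291. A difference on this scale understates the change of genes at such low levels.

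The 20 members with reads that fell short of that filter were all tested only in the fit with no filter beyond a TPM above 0. There, 0 of 29216 genes passed the limma adjusted threshold, and 4 of the 21 members had an unadjusted p under 0.05, all higher at E18, against 11.7% of all genes. Hoxb4 differed by 1.29 ± 0.42 (limma adjusted p 0.211), Hoxb3 by 1.05 ± 0.37 (0.240) and Hoxb2 by 0.49 ± 0.18 (0.265). The fit of recovered reads by limma voom, for genes with at least 10 reads in all, took in 13 members and called 0 of them, with 7.13% of all genes called. All 13 estimates there were higher at E18, where the median over all genes was 0.14. The share of all genes with a higher estimate was not computed. Hoxb9, Hoxc8 and Hoxd3, whose means were lower at E18, had too few reads to enter. Hoxc6 entered with an estimate of 0.70, though its mean TPM was lower at E18. The smallest voom adjusted p were 0.0946 for Hoxb3 and 0.106 for Hoxb4. After rescaling to protein-coding genes 5 members were tested and limma called 0, with adjusted p of 0.0506 for Hoxa2, 0.0516 for Hoxb4 and 0.0920 for Hoxb3.

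Without overlap of the days, 4 members were higher at E18 (Hoxa2, Hoxb2, Hoxb3 and Hoxb4), of 21 with a read. The same held for 15% of all genes above 0, and for 12.8% of those with a mean under 2.5 TPM. No member was lower without overlap, against 5.74% of all genes above 0. Hoxb2 overlapped after rescaling to protein-coding genes, and the other 3 did not. The mean was higher at E18 for 17 of the 21 members, under each of the 3 other scalings of TPM as well, against 60.7% of all genes above 0 and 67.2% of the low-level ones. The 4 with a lower mean were Hoxb9, Hoxc6, Hoxc8 and Hoxd3.

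Summed over a cluster, HoxA came to 0.774, 1.70 and 0.512 TPM at E16 and 4.88, 9.73 and 2.31 TPM at E18. The E18 mean was 5.67 times the E16 mean, a log2 ratio of 2.502. Leaving out E16 replicate B raised that log2 ratio to 3.13, and leaving out E18 replicate B lowered it to 1.85. HoxB came to 1.10, 1.27 and 1.12 TPM at E16 and to 4.68, 10.5 and 4.07 TPM at E18, 5.53 times the E16 mean, a log2 ratio of 2.47. Without E18 replicate B that log2 ratio was 1.91. Both clusters had every E18 library above every E16 library. HoxC did not separate, with 0.0570, 0 and 1.01 TPM at E16 and 0.387, 0 and 1.13 TPM at E18. These sums are described with no test, since they are scores over chosen genes.

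Mesenchyme markers were higher at E18 as well, with the same library in the lead. E18 replicate B had the highest summed mesenchyme level (5569 TPM) and the highest summed Hox level (20.2 TPM), and 10 of the 21 members with a read were highest in it, against 33% of all genes above 0 and 37.3% of the low-level ones. All 10 mesenchyme markers were called higher at E18 in limma, with a median difference of 2.65, against 3.08% of all genes. With any 1 library other than E18 replicate C left out, limma called 0 of the 10, and the median difference stayed at 2.18 to 2.94. Collagen genes (Col1a1, Col1a2 and Col3a1) made up most of the marker sum. Col1a1 alone had a mean of 282 TPM at E16 and 1683 TPM at E18, where the sums had means of 532 and 3418 TPM. Per 1000 TPM of mesenchyme markers, the summed Hox level was 5.05, 6.48 and 3.59 at E16 and 4.02, 3.63 and 3.85 at E18. On this ratio the E18 values lay within the E16 range, with means of 5.04 ± 1.45 and 3.83 ± 0.195 (SD, n = 3). Markers of smooth muscle (17.7 to 49.99 TPM at E16, 171 to 373 TPM at E18), mesothelium (20.1 to 21.7 and 73.1 to 134 TPM) and hepatic stellate cells (17.7 to 38.7 and 96.6 to 296 TPM) moved the same way, and none of the 3 lists had a marker at 0 throughout. The part of each cell type in the Hox difference was not tested.

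**Figure D3:**
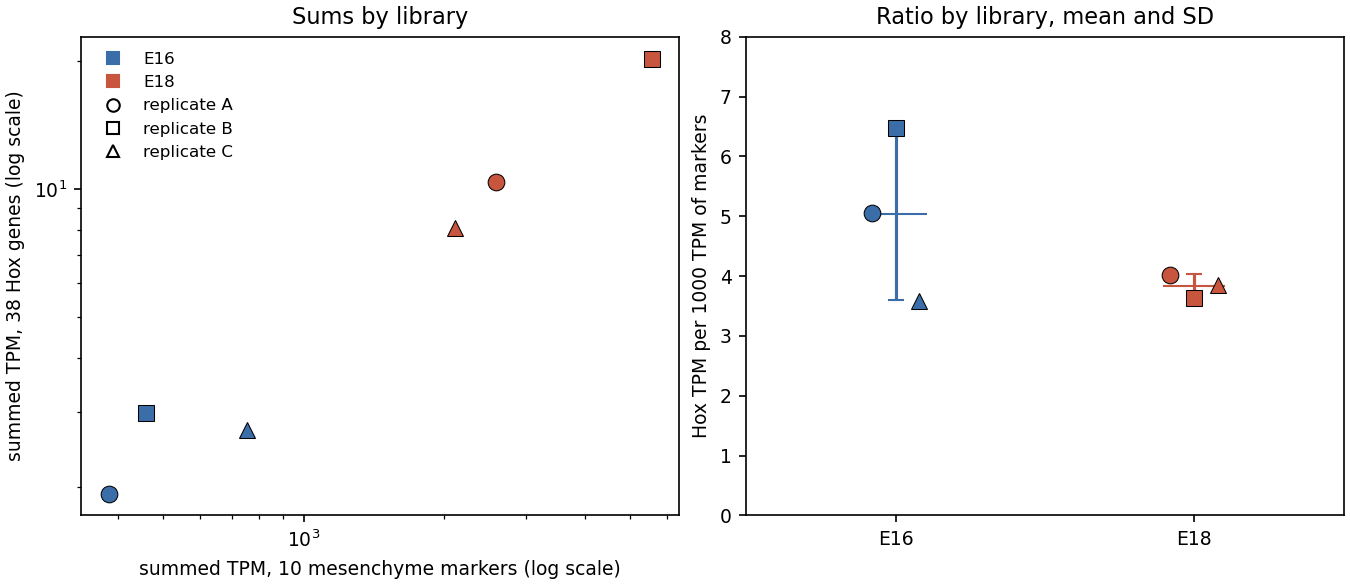
Left, summed TPM of the 38 Hox members against summed TPM of 10 liver mesenchyme markers (both axes log), and right, Hox TPM per 1000 TPM of those markers with day means and SD (n = 3); colours mark days and shapes replicates. The E16 libraries lie at 1.93 to 2.97 TPM of Hox genes and the E18 libraries at 8.11 to 20.2 TPM, while the E18 ratios lie within the E16 range.

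The 8 TALE cofactor genes described summed to 64.7 to 91.8 TPM at E16 and 87.9 to 102 TPM at E18. Limma called 0 of the 8, with 6 positive differences and a median of 0.69. Meis1, a cofactor of Hox proteins, had 0.946, 2.04 and 2.51 TPM at E16 and 7.23, 14.2 and 5.31 TPM at E18, a log2 difference of 1.75 ± 0.42 with a limma adjusted p of 0.0671. Pknox2, a related TALE gene, had 0.170, 0.175 and 0.299 TPM and then 2.105, 5.02 and 1.79 TPM, 1.62 ± 0.38 with a limma adjusted p of 0.0646. Meis1, Pknox2, Meis2 and Pknox1, 4 of the 8, had all E18 libraries above all E16 libraries, against 18.4% of all genes tested. Pknox2 and Meis2 passed the filter through their E18 libraries alone, so they had to separate in this way. After rescaling to protein-coding genes Meis1 and Pknox2 passed the limma threshold, where 14.8% of all genes did. With voom on recovered reads (8.23% of genes called) or array weights, Meis2 passed beside them. On log2(TPM + 1), Meis2 differed by 0.90 ± 0.31 (limma adjusted p 0.149) and Meis3 by 1.27 ± 0.50 (limma adjusted p 0.205). Pbx2 and Pbx4 had negative differences, under each scaling tried, and Pbx2 was the most abundant of the list with 42.3 ± 9.57 TPM at E16 and 37.5 ± 5.81 TPM at E18.

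**Figure D4:**
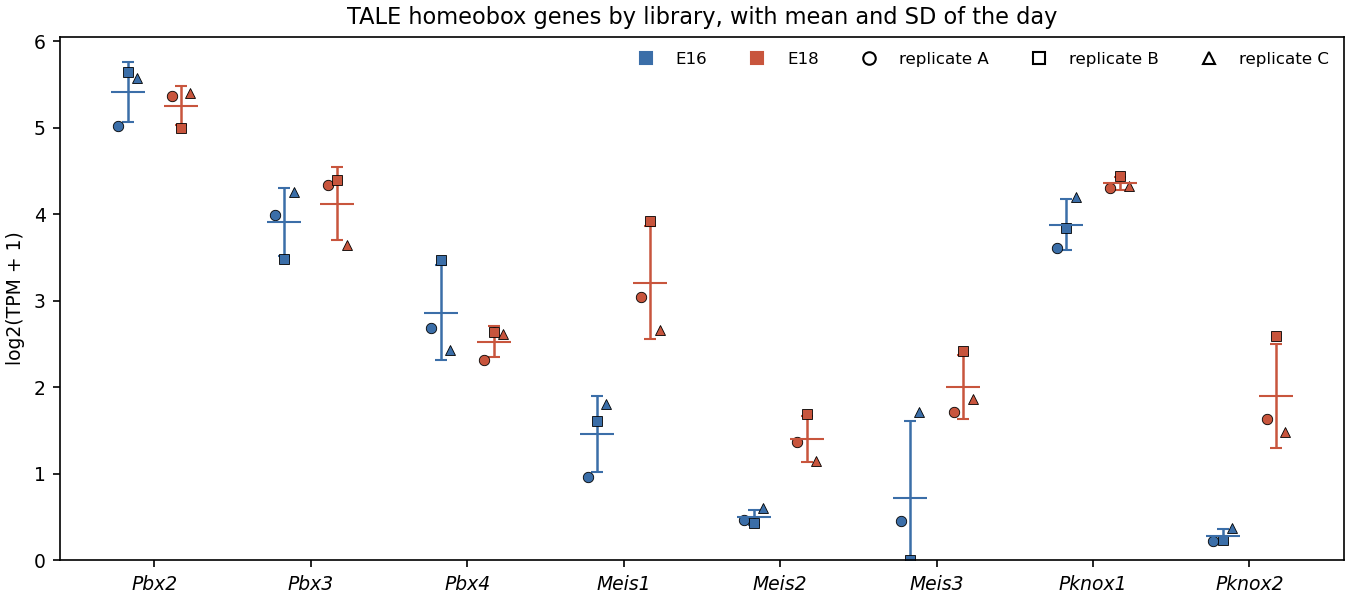
Levels of 8 TALE cofactor genes on the log2(TPM + 1) scale in the 6 libraries, with colours for days, shapes for replicates, and horizontal marks and bars for day means and SD (n = 3). Meis1 and Pknox2 have all E18 points above all E16 points, while Pbx2 overlaps between the days.

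Chromatin regulators of Hox clusters were present throughout and none was called. Of 17 Polycomb group genes, whose products keep Hox genes silent, 17 were tested and 0 called, with a median difference of 0.17. Pcgf2, a PRC1 subunit known for its homeotic mutant phenotype, had 1.99, 2.78 and 2.54 TPM at E16 and 7.90, 15.0 and 5.95 TPM at E18 (1.54 ± 0.37, limma adjusted p 0.0648), and Jarid2, a PRC2 partner, differed by 0.59 ± 0.16 (limma adjusted p 0.0916). Phc2 and Ezh1 had limma adjusted p of 0.240 and 0.290. Of 11 genes of the Trithorax group with Dot1l, whose products keep active Hox genes on, 0 were called, with a median of -0.01. Dpy30, a subunit of the MLL complexes, differed by -0.74 ± 0.22 (limma adjusted p 0.104) and Kdm6b, a demethylase of the Polycomb mark, by 0.63 ± 0.21 (limma adjusted p 0.147). Wdr5 and Ash1l had limma adjusted p of 0.331 and 0.455. After rescaling to protein-coding genes 1 of the 17 and 1 of the 11 passed the limma threshold, Pcgf2 and Dpy30, where 14.8% of all genes did.

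Retinoic acid switches on anterior Hox genes in the embryo, and 7 of 10 genes for its receptors, synthesis and breakdown entered the test. None was called, with a median difference of 0.93. The receptor Rarg had 2.13, 0.707 and 1.52 TPM at E16 and 5.96, 7.50 and 3.74 TPM at E18 (1.46 ± 0.37, limma adjusted p 0.0780), and Rara differed by 1.53 ± 0.50 (limma adjusted p 0.135). Aldh1a2, which makes retinoic acid, differed by 0.95 ± 0.34 (limma adjusted p 0.170), and Rxra by -0.38 ± 0.21 (limma adjusted p 0.381). Rarg, 1 of 7 tested, passed the limma threshold after rescaling to protein-coding genes, where 14.8% of all genes did.

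Homeobox genes linked or related to the Hox clusters were at 0: Evx1, Evx2, Cdx1, Cdx2, Cdx4, Gsx1, Gsx2 and Pdx1, 8 of 8 in all 6 libraries. The same held for 23.4% of all protein-coding genes. Of 43 other annotated genes in or beside the clusters, mostly antisense and non-coding, 31 were at 0 in every library, Hotair and Hottip among them. Only Gm11536, antisense in HoxB, was tested, with 0, 1.13 and 0.866 TPM at E16 and 3.81, 8.59 and 2.03 TPM at E18, a difference of 1.71 ± 0.52 with a limma adjusted p of 0.114. Its reads were few, 0, 4 and 3 at E16 and 9, 21 and 6 at E18.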

How the data were processed

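RNA-seq values were used as the authors deposited them, as TPM (transcripts of a gene per fixed total, corrected for length) in 3 E16 and 3 E18 libraries. The submitters' processing notes name FastQC 0.11.7, HISAT2 2.1.0, Bowtie, HTSeq 0.5.4p3 and mm10, with no role or order. How strand was set, the annotation release and the formula for TPM: not given in the sources used here. Multiplying TPM by the merged exon length of GENCODE M21 gave whole reads (within 0.05) for 65 of 65 member values above 0 and 96.8% to 97.1% of values per library, so reads here are recovered from TPM. Intervals on them cover counting error only.

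With a filter of 1 TPM in at least 3 of the 6 libraries, the days were compared on log2(TPM + 1) by limma (version 3.58.1, under R 4.3.3) and a variance trend over intensity, 2-sided, with Benjamini-Hochberg adjustment over all tested genes at 0.05. The fit was also run on simulated log2 values, drawn independently for each gene. That run cannot show how the fit behaves when 1 library shifts many genes. Members were named in full; list genes were named where called or among the 4 with the smallest p. Library values were due for members with a day mean of at least 1 TPM, and those of other members and of list genes were added after they had been seen. Of 39 genes matching the rule, 1 is not reported here, and nor is 1 gene of the cofactor list. Marker lists of liver mesenchyme and 7 other cell types were summed per library. The members and lists were chosen with earlier results of these data known. The letters A, B and C were not used as pairs. Alternatives covered the pseudocount, filter, scaling, weights, block, recovered reads and each library left out.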

Additional observations from a re-analysis of the deposited data

How the results depend on the processing

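The count of all genes called by limma (618) was 347 with a pseudocount of 5, 395 after quantile normalization, 1944 after rescaling to protein-coding genes, 4316 with array weights and 1465 with voom on recovered reads. It was 1656 with voom on genes of at least 10 reads, chosen after seeing the data. It was 0 without the filter on low values (4571 genes at an unadjusted p under 0.05). It was also 0 with the replicate block (3195 at an unadjusted p under 0.05), where the letters do not pair the libraries: deviations of same-lettered libraries correlated at 0.102, -0.139 and -0.117. Leaving out 1 library gave 0 to 664 calls: 0 without replicate A or C of E16, or without replicate A or B of E18 (2765 to 3438 at an unadjusted p under 0.05), and 55 without E16 replicate B. The cause was not tested. Quantile normalization moved the median difference of all genes from 0.07 to -0.09.

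Of the Hox members, 0 were called under each of these settings except array weights, with 1 (Hoxa2). Hoxa2 kept a positive difference in each fit, 0.92 to 1.73 with 1 library left out, where the filter had fixed that direction. The count of members at 1 TPM in at least 3 libraries (1) was 5 at a threshold of 0.5 TPM or after rescaling to protein-coding genes, and 0 at 2 TPM or when all 6 libraries had to pass. With 1 library left out, also chosen after seeing the data, 4 to 8 members reached 1 TPM in any library. In the same way, 5 to 7 members were higher at E18 without overlap, the highest without E16 replicate B or E18 replicate B, where fewer libraries have to separate. The share of all genes that did so with 1 library left out was not computed, so these counts have no background. The HoxB log2 ratio ran from 1.91 to 2.71. Of the 10 mesenchyme markers, limma called 9 with median-of-ratios scaling, 7 after quantile normalization, and 0 with the replicate block or without the filter. With array weights, limma called 3 of 17 Polycomb genes, 1 of 11 Trithorax genes and 3 of 7 retinoic acid genes, against 24.2% of all genes. Depth limits every member: 4.41 to 6.83 reads stood for 1 TPM of a transcript of 1000 bases.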

Other observations

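Reads also fell to other transcripts of the clusters, some of them beside anterior Hox genes. Gm15050, antisense in HoxA, was at 0 in the 3 E16 libraries and had 2.46, 5.15 and 0.656 TPM at E18, from 6, 13 and 2 reads. Hoxaas2, beside Hoxa2, had 0, 7 and 15 reads at E16 and 9, 34 and 23 at E18. The gene 5730596B20Rik, which lies within Hoxa3, had 0, 0 and 14 reads at E16 and 13, 37 and 14 at E18. Hoxd3os1, antisense to Hoxd3, had 7 and 5 reads in E16 replicates B and C and 4 in E18 replicate B. Hotairm1, at the anterior end of HoxA, had 2 reads in E18 replicate B and 5 in E18 replicate C. Between Hoxb13 and Hoxb9, the pseudogene Gm11539 had 2, 2 and 3 reads at E16 and 1, 3 and 0 at E18, and Gm53 had 1 read in each of 2 E16 libraries.

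Of the retinoic acid genes, Cyp26a1, an enzyme that breaks down retinoic acid and is a target of its receptors, fell short of the filter on low values. It had 0, 0.170 and 0.0871 TPM at E16 and 1.41, 5.31 and 0.51 TPM at E18, and was highest in E18 replicate B. These genes were chosen after their values were seen, and no test was made of them.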
